A study of Caenorhabditis elegans with 92 samples.

Results

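The 160 genes described here were those with at least 500 FPKM (read fragments scaled by transcript length and by library size) in every one of 11 RNA-seq libraries of Caenorhabditis elegans, out of 20376 genes measured. The rule used the levels themselves, so every level below is a description, and it also held each gene above 500 FPKM in both stages and both genotypes. All 160 were protein-coding genes. Cytosolic ribosomal protein genes made up 80 of them, and the other 80 were translation factors, chaperones, cytoskeletal and mitochondrial genes and a set of genes of many roles.

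The ribosome makes protein from mRNA. Its large subunit joins amino acids and its small subunit reads the message, and each protein of both subunits is needed in about equal number, so that the genes are transcribed heavily in growing cells. In the worm most of the ribosomes of the early embryo come from the mother, and larvae make their own as they grow. Elongation factors, chaperones, actins and the ATP synthase are other proteins that cells of nearly every type need in large amounts.

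Embryos were wild type (strain N2), of mixed stages, freed by bleaching from gravid adults kept at 20 °C, with 5 libraries. Larvae came from strain VC768. It keeps the kle-2 allele ok1151 on chromosome III over hT2, a balancer (I;III) bearing bli-4(e937), let-?(q782) and the GFP insertion qIs48. KLE-2 is a subunit of condensin II, a complex that compacts chromosomes. About 500 larvae per sample were picked by hand at L2-L3: GFP-positive heterozygotes, which carry the mutation and the balancer, and GFP-negative homozygotes, which do not carry the balancer and which, per the study, still hold KLE-2 from the mother. Each genotype had 3 libraries. Before picking, the larvae had grown at room temperature. Embryos and larvae therefore differ in stage, strain, growth conditions and the amount of RNA used, and their tables were normalized separately, so the 2 stages are set side by side without a test. Nothing states that the larval libraries are separate cultures, and their p-values measure only the spread between these libraries.

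The files hold no counts. RNA was selected by poly(A) and sequenced with strand information. The most frequent ratio between low FPKM values put the depth of the larval libraries at 0.687 to 1.35 times that of heterozygous library 1, and that of the embryo libraries at 0.853 to 2.10 times that of embryo library 1. kle-2 itself was listed at 7.83, 10.04 and 12.8 FPKM in heterozygous libraries 1 to 3 and at 3.54, 4.24 and 6.59 in homozygous libraries 1 to 3, with no overlap and lower in the library of each pair labelled homozygous. The difference was -0.97 on the log2(FPKM + 1) scale (two-sided exact permutation p = 0.1, the smallest that 3 against 3 libraries allow). Its adjusted p from limma was 0.313, and it was 0.013 in a fit blocked by replicate number. A list of 13 embryo genes summed to 758.8 to 1368 FPKM in embryos and to 148.5 to 190.1 in heterozygous larvae. Of these, skn-1 alone had 106.1 to 147.7 FPKM in heterozygous larvae and pos-1 alone 213.8 to 523.8 in embryos. The 35 late larval and adult genes summed to between 2.06 and 113.7 FPKM. Across larval libraries 1 to 3 the sums were 42.2, 7.36 and 88.6 in heterozygotes and 37.4, 7.19 and 92.1 in homozygotes. In that list the adult collagen gene col-19 and the cuticle collagen bli-1 were at or below 3.98 FPKM in every library. By contrast msp-81 had 13.2 FPKM in heterozygous library 3 and 14.9 in homozygous library 3. The yolk protein genes vit-2, vit-5 and vit-6, which adult intestine transcribes, summed to 102.9 FPKM in embryo library 2, 43.1 in embryo library 3 and 13.6 in embryo library 5, against less than 1 FPKM in embryo libraries 1 and 4.

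The genes took a large part of the measured transcript. They held 31.5% ± 4.37 (SD, n = 5) of the summed FPKM in embryos, 56.2% ± 4.05 (SD, n = 3) in heterozygous larvae and 50.9% ± 4.32 (SD, n = 3) in homozygous larvae. The ribosomal protein genes made most of the difference between the stages: their share was 13.8 to 25.6% over the embryo libraries, 41.7 to 49.2% over the heterozygous and 36.0 to 42.8% over the homozygous libraries. The other 80 genes stayed between 10.8 and 14.6% in all 11 libraries. Between 67 and 92 of the 100 highest genes of each library were among the 160.

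**Figure D1:**
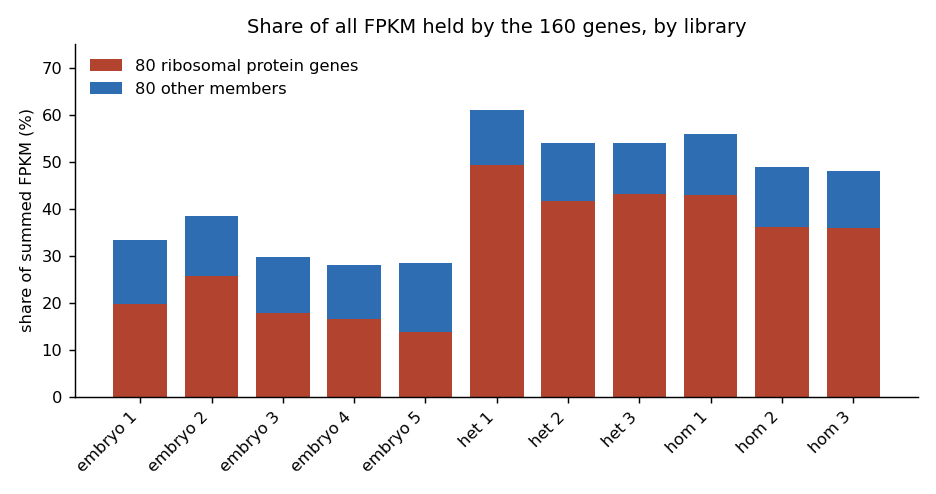
Share of the summed FPKM (%, bars from 0) held by the 80 ribosomal protein genes and the 80 other genes in each of the 5 embryo, 3 heterozygous (het) and 3 homozygous (hom) larval libraries. The ribosomal share is at most 25.6% in embryos and at least 36.0% in larvae, and the share of the other genes is 10.8 to 14.6% throughout.

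Almost the whole ribosome passed the rule. The members held 47 of the 51 large-subunit genes measured and all 33 of the small-subunit genes. The 4 that missed it were rpl-42, which was listed at 0 in 9 of the 11 libraries and at most at 0.451 FPKM, rpl-11.1, rplp-2.2 and rpl-22. The last, rpl-22, had 307 FPKM in embryo library 5 and 706 to 3710 FPKM in the other 10 libraries. rpl-11.1 and rplp-2.2 are second copies, and their partners rpl-11.2 and rplp-2.1 were members. Reads of near-identical copies can be shared, so the split between rpl-23A.1 and rpl-23A.2, between rpl-37.1 and rpl-37.2, between the elongation factor genes eef-1A.1 and eef-1A.2, and among the actin genes is uncertain.

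The highest gene of every library was rpl-29 (B0513.3, chromosome IV), for a small protein of the large subunit. It was listed at 24246, 37166, 11401, 13410 and 12328 FPKM in embryo libraries 1 to 5, at 57345, 33229 and 27570 in the heterozygous and at 38081, 26796 and 26948 in the homozygous libraries. Embryo library 2 thus lay within the larval range, and the other embryo libraries below it. After it, by geometric mean over the 11 libraries, came rpl-36, rpl-27A, Y82E9BR.3, rpl-31, the small-subunit gene rps-29, eef-1A.1 (F31E3.5), the factor that brings aminoacyl-tRNA to the ribosome, rpl-38, rpl-18 and F13H10.8. At the other end of the large subunit stood rpl-23A.2, at 531 to 2430 FPKM over the libraries, and at the lower end of the small subunit rps-17, at 868 to 3648 FPKM. The geometric means of the ribosomal genes ran from 1261 to 25065 FPKM with a median of 3366, and those of the other 80 from 653 to 8066 with a median of 1258.

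Ribosomal protein genes were lower in embryos than in heterozygous larvae without exception. All 80 had a negative stage difference (mean log2(FPKM + 1) of the 5 embryo libraries minus that of the 3 heterozygous libraries), with a median of -1.84, or 3.58-fold, and in 73 of 80 the 5 embryo libraries lay wholly below the 3 heterozygous ones. Over the 11486 genes with a mean of at least 1 FPKM in both tables, 18.4% lay wholly below and 39.5% wholly above, and the median difference was 0.43, so the ribosomal genes stood -2.27 from the median gene. The median was -1.85 for the large and -1.83 for the small subunit, and the difference between them was not tested. Rescaling each library to the same sum gave a ribosomal median of -1.43 and a median gene of 0.79, which leaves -2.22 between them. In whole animals, fewer cells of a type and less RNA per cell cannot be told apart.

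The lowest stage difference was that of rplp-0 (F25H2.10, chromosome I), the protein that anchors the stalk of the large subunit, where elongation factors bind. It was listed at 1135, 1074, 1013, 969 and 643 FPKM in embryos 1 to 5 and at 11260, 8673 and 8748 in heterozygous libraries 1 to 3. Every embryo library was lower than every larval library, and the group means on the log2(FPKM + 1) scale differed 9.99-fold. rplp-1 (Y37E3.7), another stalk protein, differed by -2.30, with 695 to 1643 FPKM in embryos and 4018 to 6633 in heterozygous larvae. rpl-4 (-2.30) and rack-1 (-2.28), a scaffold protein on the small subunit, followed closely. C05G5.7 on chromosome X was the only gene outside the ribosome among the lowest 5, at 977, 1959, 687, 683 and 1321 FPKM in embryos against 11892, 7911 and 3018 in heterozygous libraries, a difference of -2.67. The ribosomal genes with the smallest shift were ubq-2 (-0.61), which encodes ubiquitin joined to a large-subunit protein, and rps-21 (-0.75). Both overlapped between the stages.

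The translation factors were also lower in embryos. Of 43 measured genes of that list 8 were members, and all 8 had a negative stage difference, with a median of -1.05. In 7 of 8 the embryo libraries lay wholly below, against 18.4% of all genes. eef-2, which moves the ribosome along the mRNA, differed by -1.64, iff-2, the eIF5A homologue, by -1.59, and the poly(A)-binding protein gene pab-1 by -0.97. The highest of them, eef-1A.1, was listed at 6333, 4947, 4322, 3762 and 7025 FPKM in embryos and at 12607, 11357 and 10034 in heterozygous larvae. tct-1, the homologue of the translationally controlled tumour protein and counted in that list, had the lowest difference, -1.69. The list member with the lowest level, icd-2, a subunit of the nascent polypeptide-associated complex, differed by -0.74.

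Over the other 80 genes the median stage difference was -0.18, with 48 lower and 32 higher in embryos. Of these, 24 lay wholly below the heterozygous libraries, where 18.4% of all genes did, and 11 wholly above, where 39.5% did. Relative to the median gene the shift was -0.61, and the sign of the median depended on the scaling: after rescaling to the same sum it was 0.23, with 31 lower and 49 higher, and after median centring it was -0.71, with 68 lower and 12 higher.

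Those highest in embryos act on chromatin, water transport, secretion and mRNA. hmg-1.1 (Y48B6A.14, chromosome II), an HMG-box protein of chromatin, was listed at 6392, 5542, 5958, 5819 and 8394 FPKM in embryos 1 to 5 and at 689, 655 and 561 in heterozygous larvae, a difference of 3.33. his-72 (Y49E10.6), a gene for the replacement histone H3.3, was listed at 3158, 3120, 2679, 2272 and 3653 against 728, 583 and 503, a difference of 2.30. These were 10.02-fold and 4.91-fold gaps. his-72 was the only member of 81 histone genes in the tables. RNA was selected by poly(A), so histone transcripts without a poly(A) tail would be under-counted here. The aquaporin gene aqp-2 differed by 2.27 and cey-1, a Y-box RNA-binding protein, by 1.37. sec-61.G, a subunit of the translocon through which new proteins enter the endoplasmic reticulum, was 2.63-fold higher in embryos. None of the 5 overlapped between embryos and heterozygous larvae. They kept their direction after rescaling and median centring.

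**Figure D2:**
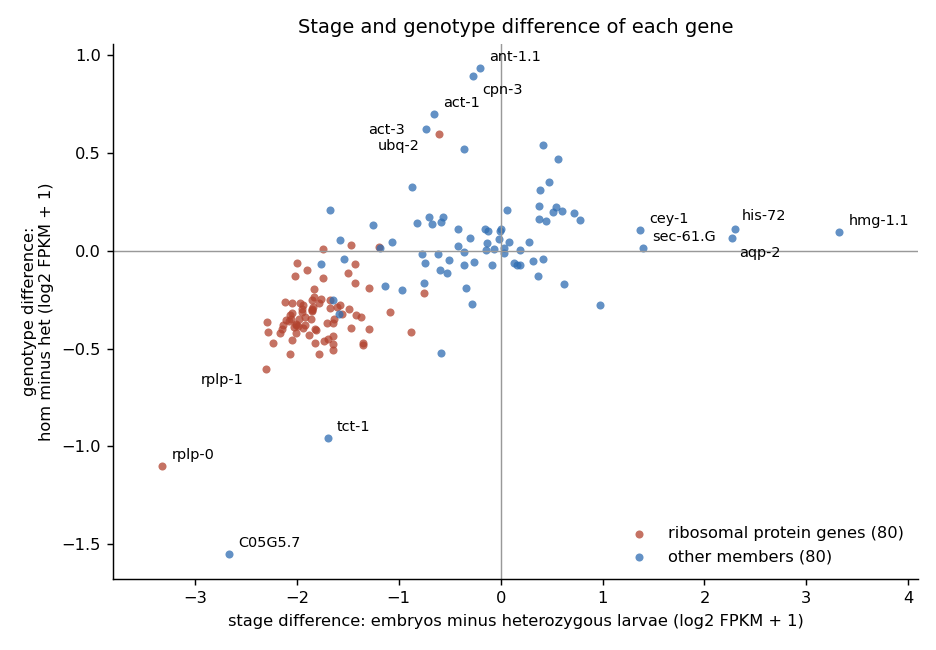
Stage difference (x, embryos minus heterozygous larvae) against genotype difference (y, homozygous minus heterozygous larvae), both in log2(FPKM + 1), for the 160 genes. Both axes share the heterozygous libraries, so the slope of the cloud is no result. The 80 ribosomal protein genes are all left of 0, with rplp-0 lowest at -3.32, and hmg-1.1 is farthest right at 3.33.

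Enzymes and cytoskeletal genes fell on both sides of 0. The glyoxylate cycle enzyme gene icl-1 differed by -1.76, the adenosylhomocysteinase gene ahcy-1 by -1.58, the nucleoside diphosphate kinase gene ndk-1 by -1.53, and the ATP synthase subunit genes atp-1 and atp-2 by -1.26 and -1.18. Of 12 members among 51 genes of oxidative phosphorylation, 3 lay wholly below and 0 above, against 18.4 and 39.5% of all genes, with a median of -0.17. The one with the highest level, ant-1.1, is the ADP/ATP carrier of the inner mitochondrial membrane, and the one with the lowest was the ATP synthase gene atp-3, at 577 to 1080 FPKM over all libraries. Among 9 members of the actin and tubulin list, 5 lay wholly above (39.5% of all genes did), among them the tubulin genes tba-2 (0.72) and tbb-2 (0.60) and the dynein light chain gene dlc-1 (0.98), and act-1 (-0.65) and act-3 (-0.73) lay wholly below (18.4% of all genes did). Their neighbour act-2 had the opposite sign (0.42), and the split of reads among the actin genes is uncertain. The 9 chaperone and isomerase members had a median of 0.06. The one with the highest level was pdi-2, a protein disulfide isomerase (stage difference 0.51), and the one with the lowest was the cyclophilin gene cyn-3 (0.03). aldo-2 (glycolysis), prdx-2 (redox), far-1 (lipid carriers) and cey-1 (mRNA binding) were the only members of their lists, and 0 of 75 ubiquitin and proteasome genes, 0 of 18 muscle genes and 0 of 204 collagen and cuticle genes passed the rule. The member ubq-2, which encodes ubiquitin joined to a ribosomal protein, was counted with the ribosome and not in the ubiquitin list.

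The most even gene over all libraries was cmd-1, which encodes calmodulin, at 644 to 776 FPKM. Next came R53.4, whose highest library was 1.48 times its lowest, and the vacuolar ATPase subunit gene vha-2, at 1.49 times. At the other end the highest library was 17.5 times the lowest for rplp-0, 17.4 times for C05G5.7 and 15.2 times for hmg-1.1. The median was 6.17 times for ribosomal genes and 2.54 times for the others.

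Within embryos the ribosomal genes also moved together from library to library. Embryo library 2 was the highest of the 5 for 76 of 80 ribosomal genes and embryo library 5 the lowest for 61 of 80. Their median distance from the gene's own mean was 0.65 in library 2 and -0.47 in library 5 on the log2 scale. For the other 80 genes it was 0.20 and 0.10, and library 2 was the highest for 36. The SD of log2(FPKM + 1) over the 5 libraries had a median of 0.48 for ribosomal genes, 0.29 for the others and 0.36 over all 11486 genes, and 55 ribosomal but 27 other members exceeded that last value.

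**Figure D3:**
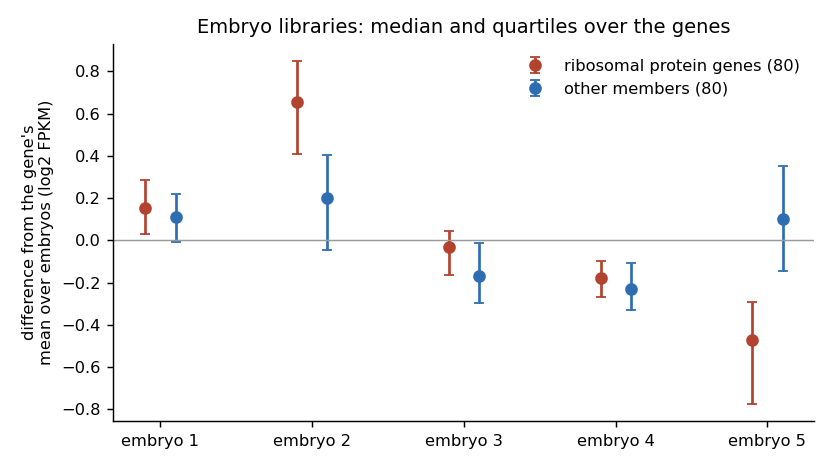
Median (point) and quartiles (bars) over genes of the difference between a gene's log2 FPKM in an embryo library and its mean over the 5 embryo libraries, for the 80 ribosomal protein genes and the 80 other genes. Ribosomal genes are at 0.65 in library 2 and -0.47 in library 5.

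The largest SD was that of the large-subunit gene rpl-14, at 2505, 3690, 1836, 1712 and 599 FPKM in embryos 1 to 5 (SD 0.98). rpl-39 and rps-28 followed (SD 0.90 for each), both also lowest in library 5, at 1446 and 1394 FPKM. The smallest SD was that of unc-60, which encodes ADF/cofilin proteins that cut actin filaments, at 1071, 1148, 1106, 1112 and 1036 FPKM (SD 0.06), then atp-2 and cey-1 (SD 0.09 for each). Marker lists differed between these libraries too. The 18 muscle genes summed to 1349 FPKM in library 5 and to 3482 to 5821 in the other 4 libraries, and the 13 embryo genes to 1368 FPKM in library 5 and 1260 in library 1. Library 2 had the lowest sum of the 13 embryo genes, 758.8 FPKM, and the highest sums of the late larval and adult list, 113.7, and of its 3 yolk genes, 102.9. Single embryo genes did not all rank this way: mex-6 and skn-1 were lowest in library 2, end-1 in library 4 and hlh-1 in library 1. The part of these lists in the ribosomal values was not tested. Without library 5 the ribosomal stage difference was -1.69, and without library 2 it was -1.97.

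The comparison of homozygous with heterozygous kle-2 larvae asks what loss of the zygotic condensin II subunit does to transcript levels. Without regard to replicate number, limma called 0 of the 160 genes at an adjusted p of 0.05, where 0.117% of the 12837 genes tested (15) were called, 0.0779% higher and 0.0389% lower in homozygotes. Unadjusted limma p was under 0.05 in 24 of the 160, against 1079 of the 12837 genes tested. The smallest adjusted p among the 160, from limma, was 0.0647, for tct-1. Libraries with the same replicate number deviated together, and with the number as a block limma called 41 of the 160 (25.6%), where 8.43% of all tested genes were called. Of the 41, 9 were higher in homozygotes, where 4.04% of all tested genes were, and 32 were lower, where 4.39% were. Leaving out pair 1 left 0 calls among the 160 and 0 among all genes. Leaving out pair 2 left 7 (4.38%, against 2.49% of all genes), and leaving out pair 3 left 14 (8.75%, against 6.43%).

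Ribosomal protein genes made up 30 of the 41. They were slightly lower in homozygotes, with a median of -0.34 (0.788-fold), against 0.04 for the other 80 genes and -0.00425 for all tested genes. 76 of 80 had a negative difference, and 74 of 80 were lower in the homozygous library of all 3 numbered pairs, where 24.1% of all tested genes were. In 18 of 80 the groups did not overlap, with the homozygotes below, against 5.22% of all genes. With the block 29 were called lower, 14 of the large and 15 of the small subunit, and 1, ubq-2, higher. Among the other 80 genes the homozygous libraries lay wholly above in 11, against 7.29% of all genes, and 29 were higher in all 3 pairs, against 24.3%. The ribosomal pair medians were -0.32, -0.30 and -0.34. Of 33 small-subunit genes all had a negative difference, from -0.53 for rps-27 to -0.06. The 4 that were not lower were rpl-3, rpl-7A and rpl-12, within 0.03 of 0, and ubq-2. Outside chromosome III, which the balancer involves, the ribosomal median was -0.35. Chromosome I, which the balancer also involves and which held 24 of the 80, was not left out.

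The size of the ribosomal shift depended on the scale. It was -0.23 after rescaling, with all genes at 0.10, and -0.06 after quantile normalization, which gives every library the same set of values. With the block and rescaling, limma called 24 of the 160 (15.0%, against 11.6% of all genes), 15 of them higher (7.76% of all genes) and 9 lower (3.87%). Heterozygous library 1 was the highest of its group for 72 of 80 ribosomal genes and homozygous library 1 for 73, and without heterozygous library 1 the median was -0.21 and that of all genes -0.09, which leaves -0.12 between them in place of -0.34. Germline markers moved the other way: the 10 genes summed to 94.8 to 103.7 FPKM in heterozygous and 126 to 140.5 in homozygous libraries, and with the block limma called 4 of 10 higher (4.04% of all genes) and 0 lower (4.39%). Their part in the ribosomal values was not tested.

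**Figure D4:**
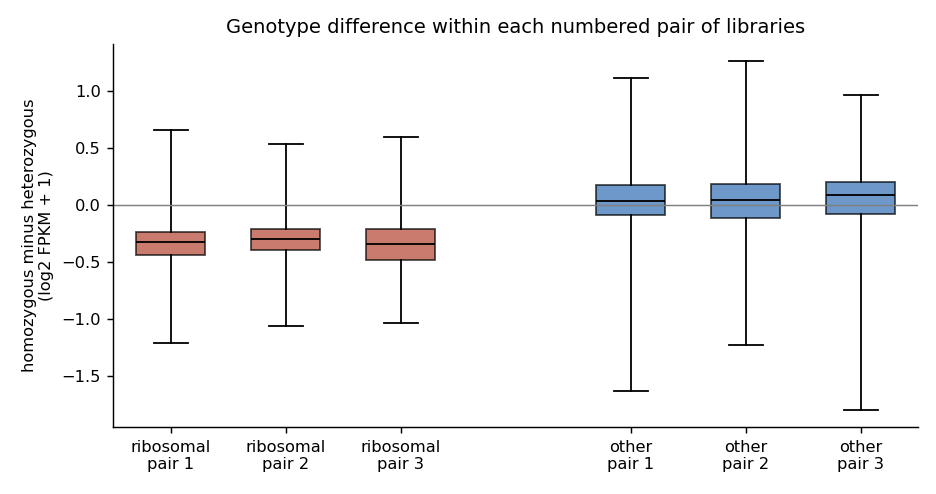
Homozygous minus heterozygous library (log2(FPKM + 1)) within each of the 3 numbered pairs, for the 80 ribosomal protein genes and the 80 other genes. Boxes show the quartiles and the median and whiskers the full range. The ribosomal medians are -0.32, -0.30 and -0.34 and those of the other genes are 0.04, 0.04 and 0.09.

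A pair of neighbours on chromosome I stood out. rplp-0 was listed at 11260, 8673 and 8748 FPKM in heterozygous libraries 1 to 3 and at 4864, 4153 and 4275 in homozygous ones. Next to it tct-1 (F25H2.11) was listed at 4458, 4343 and 4861 and at 2352, 2284 and 2399. Neither overlapped between genotypes. rplp-0 was 2.15-fold lower in homozygotes (SE of the log2 difference 0.07 with the block) and tct-1 1.94-fold lower (SE 0.06 with the block). limma gave adjusted p = 0.0674 and 0.0647 without and 0.00763 for both with the block, and each exact permutation p was 0.1.

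In gene order both lay at 70.3% of chromosome I. Of the 5 genes on either side, the next gene before rplp-0, the proteasome subunit gene pas-5, was also lower in homozygotes, with 177.5, 186.4 and 193.1 FPKM in heterozygous and 108, 101.8 and 135.4 in homozygous libraries. Its difference was -0.70 (limma adjusted p = 0.207 without and 0.0175 with the block), and it was named after its values were seen. It was the only one of these 10 genes called with the block. Directly after tct-1, F25H2.12 (-0.49) and rtel-1 (-0.31) also had homozygous libraries wholly below, where 5.22% of all genes did. Both were low, at means of 3.43 and 3.97 FPKM (limma adjusted p = 0.144 and 0.223 with the block). F25H2.7 (0.48), ubc-25 (0.07), F29C6.1 (0.06) and lst-1 (0.03) had positive differences. ndk-1, 5 genes before rplp-0 and itself among the 160, had 4471, 4316 and 3666 FPKM in heterozygous and 4554, 4067 and 3477 in homozygous libraries. Only heterozygotes carry the balancer, which joins chromosomes I and III, so loss of kle-2 and loss of the balancer cannot be told apart here.

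**Figure D5:**
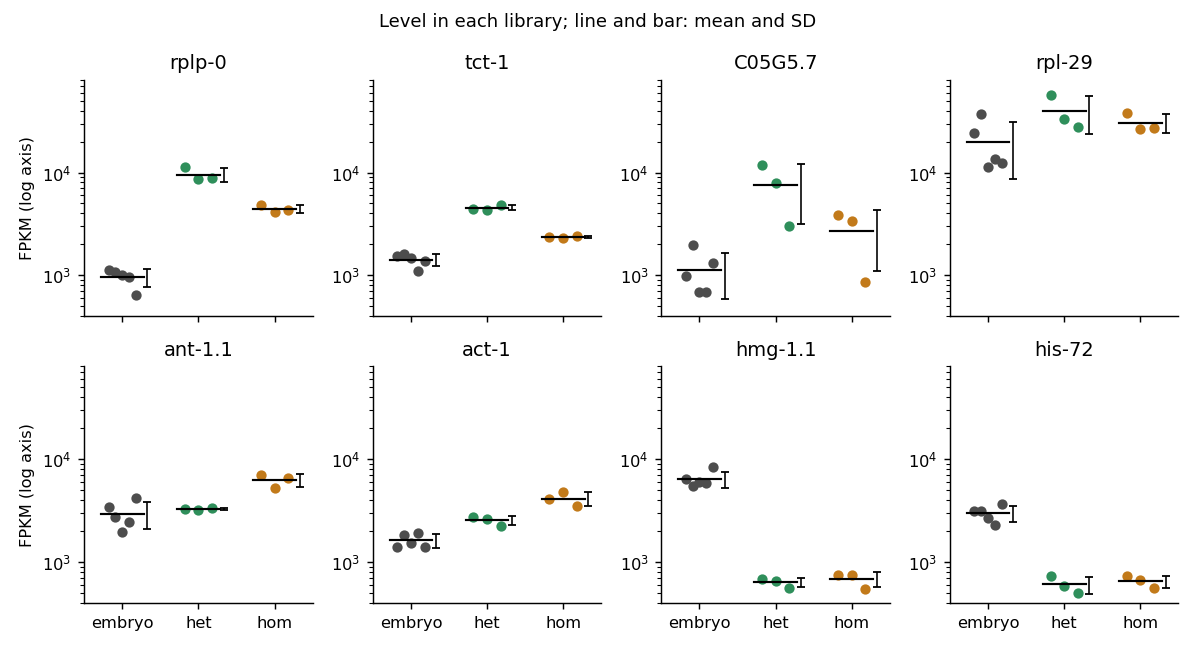
FPKM (log axis) of 8 of the genes in each of 5 embryo, 3 heterozygous (het) and 3 homozygous (hom) larval libraries, with the mean (line) and SD (bar) of each group. rplp-0 and tct-1 lie lower in hom than in het with no overlap, C05G5.7 ranges from 869 to 11892 over the larval libraries, and ant-1.1 and act-1 lie higher in hom.

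The lowest genotype difference was that of C05G5.7, -1.55. It was listed at 11892, 7911 and 3018 FPKM in heterozygous and 3843, 3374 and 869 in homozygous libraries 1 to 3, so the groups overlapped, but each homozygous library was below its heterozygous pair. Without homozygous library 3 the difference was -0.87, smaller than those of rplp-0 (-1.08) and tct-1 (-0.97) in the same setting. limma gave an adjusted p of 0.578 without and 0.00763 with the block. rplp-1 was listed at 6633, 4018 and 5128 and at 3776, 3476 and 2951 FPKM, a difference of -0.61 with no overlap. It passed neither fit. The zinc-binding ribosomal protein gene rps-27 was listed at 13036, 9519 and 10479 and at 7856, 7998 and 6899 FPKM, a difference of -0.53 (limma adjusted p = 0.0499 with the block).

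Genes higher in homozygotes were led by ant-1.1 (T27E9.1). It was listed at 3260, 3220 and 3360 FPKM in heterozygous and at 7031, 5305 and 6542 in homozygous libraries, which did not overlap. The difference was 0.93 (SE 0.09, limma adjusted p = 0.0105 with the block and 0.1 without). ubq-2 was listed at 2878, 2083 and 2190 and at 4529, 3023 and 3312, a difference of 0.60 (limma adjusted p = 0.012 with the block), where the rest of the ribosome was lower or near 0. Both genes are close to the right end of chromosome III, at 97.9 and 94.6% of its gene order. The next member inwards was his-72, at 91.5%, with a difference of 0.11. The other 30 members on chromosome III ran from -0.47 to 0.47. The balancer and the mutation cannot be told apart for these genes either.

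The actin genes act-1 to act-4 were higher in homozygotes, and limma called them with the block and not without it. Reads may be shared among them, which was not examined, so the split is uncertain and their calls are not taken as separate observations. act-1 was listed at 2762, 2601 and 2245 FPKM in heterozygous and at 4086, 4775 and 3506 in homozygous libraries, a difference of 0.69 (limma adjusted p = 0.228 without the block). act-3 differed by 0.62, act-2 by 0.54 and act-4, the highest member of the list, by 0.52, and 3 of these 4 genes are direct neighbours on chromosome V. limma called all 4 with the block, as 4 of the 9 members of the actin and tubulin list and as part of 35 tested genes of which 9 rose and 0 fell, where 4.04% of all genes rose and 4.39% fell. cpn-3, a calponin-family gene, was listed at 1164, 837 and 958 and at 1824, 2001 and 1634 FPKM, a difference of 0.89 (limma adjusted p = 0.0214 with the block and 0.134 without). The 18 genes of the muscle list, none of them members, summed to 10190 to 11570 FPKM in heterozygous and 13340 to 14700 in homozygous libraries, and limma called 7 higher and 0 lower with the block, while tnc-2 (-0.12) and tnt-3 (-0.10) had negative differences that passed neither fit. Their part in the actin values was not tested. Of the remaining called genes, the cyclophilin gene cyn-5 (0.35) and the neuropeptide-like gene nlp-36 (0.47, chromosome III) were higher and the RNA-binding protein gene rbm-3.2 (-0.52) was lower.

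Along the genome the genes were uneven. Chromosome I held 44 of the 160 (27.5%, against 14.2% of all placed genes) and chromosome III 33 (20.6%, against 13.2%). Chromosome V held 22 (13.8%, against 25.2%), with 7 of the 80 ribosomal genes. The X chromosome held 9 (5.63%, against 13.7%), and only 2 of the 80 ribosomal genes were there, rpl-11.2 and rpl-23A.1. 11 pairs were direct neighbours in gene order, of which 9 held at least 1 ribosomal gene and the other two were actins. They included rps-14 with rpl-36, rpl-39 with fau-1 and rplp-1 with rpl-27A. In F36A2.7 and rps-15 the neighbours differed in stage, at -0.15 and -1.67, and in C14B9.10 and rpl-21 at 0.19 and -1.92.

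Genes just inside and just outside the threshold had similar lowest levels. The members with the lowest minimum over the libraries were his-72 (503 FPKM in heterozygous library 3), aldo-2 (505 in embryo library 4), ost-1 (509 in embryo library 5), C14B9.10 (518 in embryo library 3) and cpn-3 (519 in embryo library 5). Just outside were gln-3 (491 in embryo library 4), F49C12.11 (490 in homozygous library 1), ZK632.9 (487 in embryo library 3), lec-1 (481 in embryo library 5) and pdi-3 (481 in embryo library 5). At 250 FPKM the rule took 261 genes, of which 82 were ribosomal, and at 1000 FPKM it took 77, of which 54 were ribosomal.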

How the data were processed

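RNA-seq levels of 5 embryo and 6 larval libraries were analysed. The authors aligned strand-specific reads to WS220 with tophat and deposited FPKM values per gene from Cufflinks 2.0.2. Levels were transformed to log2(FPKM + 1) after 2 repeated rows were dropped. Homozygous and heterozygous larvae were compared with limma 3.58.1 (R 4.3.3) with an intensity trend, over 12837 genes with a mean of at least 1 FPKM, with Benjamini-Hochberg adjustment over all of them and a threshold of 0.05. The fit was tested on simulated data. The deposited FPKM hold no read counts, so count models and counting intervals were not used. Libraries of the same replicate number deviated together (correlations of the deviations from the group means of 0.44, 0.55 and 0.62, against -0.48 to -0.02 between numbers), a pairing seen in the data and not stated by the labels, and the replicate block is given beside each result it changes. A gene's deviations cancel within each genotype, so positive values within numbers push those between numbers to the negative side. The latter are no separate baseline. Symbols, chromosomes and gene order came from RefSeq (WBcel235), in which all 160 genes and 19878 of 20376 were found. The rule for named genes took kle-2, the 10 highest members, the 5 highest and lowest in stage and in genotype difference, the 3 largest and smallest embryo SDs, the highest and lowest member of each list with 2 or more, and the 5 genes on either side of 500 FPKM. Other names were chosen after values were seen. Gene lists were matched by symbol, and ribosomal symbols were extended to current names once the tables were read. The genes and lists were chosen with earlier results of these data known. Peak files were not used. Sequences and protein identities were not analysed here.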

Additional observations from a re-analysis of the deposited data

How the results depend on the processing

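The 10 largest genotype and 10 largest stage differences kept their direction under every alternative run, 140 and 120 in all. Those genes were chosen for their size in these same libraries. The block, the changed filters and the fit without a trend leave each genotype estimate as it was, so no direction could change there. The replicate block changed 9 of those 10 genotype calls, all but that of rplp-1, and moved the count over all genes from 15 to 1082. The block leaves the differences themselves unchanged, and kle-2 was called with it (-0.97, limma adjusted p = 0.013). Genes called without it numbered 6 with no filter on low values, 29 after rescaling, 36 after quantile normalization, 7 without the intensity trend and 0 to 24 when 1 library was left out. Added after seeing the data, the block gave 1238 with median centring, 1449 with rescaling, and 0, 319 and 825 without pairs 1, 2 and 3. Of the 160 genes, 2 were called after rescaling, 3 after quantile normalization, 0 without any 1 library, 41 with the block, 39 with the block and median centring, 24 with the block and rescaling, and 0 to 14 with the block and 1 pair left out.

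The median genotype difference over all 160 genes was -0.17, with -0.25 to -0.07 when 1 library was left out. Without heterozygous library 1 it was 0.02 above the median gene, not below it. The ribosomal median moved to -0.0606 after quantile normalization. That of the other genes, 0.04, moved to 0.16 after rescaling and to -0.00358 after quantile normalization. The median stage difference over the 160 was -1.35, and -0.94 after rescaling and -1.89 after median centring. These gave -1.43 and -2.37 for ribosomal genes and 0.23 and -0.71 for the others. The number of genes was 261 at 250 FPKM, 77 at 1000 FPKM and 150 after rescaling. The 77 genes held 20.8% of the summed FPKM in embryos, 40.1% in heterozygous and 36.0% in homozygous larvae. Absolute depth is not known from these files, so no counting interval is given. In 47 sets of 5 embryo values, 1 library was looked for that lay far from the other 4 (Dixon's ratio of gap to range above 0.71). None was found. The sets were the genes named by the rule and the shares of summed FPKM, and the marker lists were not checked.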
